A study of Homo sapiens with 24 samples.

Results

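The genes described here encode 7 families of histone-modifying enzymes: lysine acetyltransferases (KAT), histone deacetylases (HDAC), sirtuins (SIRT), lysine methyltransferases (KMT and SETD), arginine methyltransferases (PRMT) and lysine demethylases (KDM). Members were found by symbol, as array features annotated with a single gene symbol of one of these families, leaving out KDM5D, and by no measured value. They are 57 of the 14232 genes measured: 11 HDAC, 11 KDM, 8 KMT, 7 KAT, 7 PRMT, 7 SIRT and 6 SETD genes. RefSeq lists 69 symbols of these patterns. Of the others, 6 (KAT14, KDM5B, KDM5C, KDM6B, PRMT1 and SETD4) stand only in features shared by several symbols and 6 (KDM1B, KDM4E, KDM4F, KDM7A, SETD1A and SETD1B) had no feature used, so these 12 were not analysed here.

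RNA came from MUTZ-5 and MHH-CALL4, which are established human lines of acute lymphoblastic leukemia of B cell precursors. Each line was exposed for 8 hours to 500 nM JQ1, which competes with acetylated lysines for the bromodomains of BET proteins, or to its solvent DMSO. Each of the 4 groups has 3 Affymetrix exon arrays, 12 in all, and each line stands for 1 leukemia. Whether samples within a group were grown separately is not in the labels, so p-values reflect only their spread, which could be technical.

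Histone acetylation is laid down by the KAT enzymes and removed by the HDAC and SIRT enzymes, and BET proteins bind the acetylated lysines. Methylation is written by the KMT, SETD and PRMT enzymes and, on lysine, removed by the KDM enzymes. Many of these enzymes work inside large complexes that read one mark and write another, and several of their genes are mutated in leukemias and lymphomas.

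The promoters of 4 members are shown because their genes carry the main contrasts: PRMT3 had the largest fall, SIRT1 rose in both lines, and the paralogous acetyltransferases KAT2A and KAT2B moved in opposite directions. Each run is the 250 bases before the gene's start in RefSeq (GRCh38.p14), 5′ to 3′ on the gene's strand, and capitals mark the E-box CACGTG, a motif known to be bound by MYC and other factors.
PRMT3, chr11:20387466-20387715, plus strand: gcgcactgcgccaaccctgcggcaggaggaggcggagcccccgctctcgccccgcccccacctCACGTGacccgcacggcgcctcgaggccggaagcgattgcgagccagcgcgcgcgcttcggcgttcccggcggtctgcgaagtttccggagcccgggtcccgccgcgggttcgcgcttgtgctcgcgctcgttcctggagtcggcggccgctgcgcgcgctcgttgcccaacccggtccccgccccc
SIRT1, chr10:67884406-67884655, plus strand: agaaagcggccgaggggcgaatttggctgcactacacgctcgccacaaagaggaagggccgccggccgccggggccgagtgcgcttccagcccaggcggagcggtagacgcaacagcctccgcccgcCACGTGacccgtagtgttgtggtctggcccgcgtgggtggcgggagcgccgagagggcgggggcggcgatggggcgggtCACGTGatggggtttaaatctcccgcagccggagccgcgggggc
KAT2A, chr17:42121368-42121617, minus strand: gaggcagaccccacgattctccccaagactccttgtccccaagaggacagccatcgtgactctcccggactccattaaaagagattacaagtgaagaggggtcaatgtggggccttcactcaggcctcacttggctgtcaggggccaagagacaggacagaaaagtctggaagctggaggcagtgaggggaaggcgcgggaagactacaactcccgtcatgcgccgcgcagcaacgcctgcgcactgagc
KAT2B, chr3:20040196-20040445, plus strand: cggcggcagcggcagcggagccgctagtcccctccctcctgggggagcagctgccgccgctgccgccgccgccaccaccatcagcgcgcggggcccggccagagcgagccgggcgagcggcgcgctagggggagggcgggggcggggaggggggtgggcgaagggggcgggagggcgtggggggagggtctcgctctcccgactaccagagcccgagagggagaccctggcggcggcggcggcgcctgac
CACGTG reads the same on both strands. It occurs 1 time in the PRMT3 window, starting 187 bases before the gene's start, and 2 times in the SIRT1 window, 123 and 44 bases before it. These letters are not in the KAT2A and KAT2B windows. Among all 35116 promoter entries of RefSeq, 6.34% hold the motif in this window, against 9 of the 81 entries of members (11.1%). Counted by gene, 9 of the 53 members with an entry hold it, as do 2110 of all 27305 genes with an entry (7.7%). The members are 2 of the 10 that fell in both lines (PRMT3 and KMT2D), 2 of the 5 that rose in both (SIRT1 and KDM4B), 4 of the 29 with an entry among those called in neither line, and KAT5. The motif thus stands in members of both directions.

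All values below are RMA values in log2 units, and differences of 1 on this scale are 2-fold. A gene was called when its adjusted p (limma, Benjamini-Hochberg over all 14232 genes) was under 0.05. Treatment could be seen in MYC, which averaged 11.33 ± 0.04 under JQ1 against 12.65 ± 0.06 under DMSO in MUTZ-5, and 10.46 ± 0.08 against 12.51 ± 0.04 in MHH-CALL4 (SD, n = 3 each). HEXIM1, an inhibitor of the elongation factor P-TEFb that is widely used as a readout of BET inhibition, was 1.51 higher under JQ1 in MUTZ-5 and 1.76 higher in MHH-CALL4. Of 10 markers of B cell precursors 9 were measured, and 8 of them stood at or above the median gene level of 8.52 in every group. Under JQ1, 1 of these 9 (RAG1, which stood under that median) rose and 5 fell in MUTZ-5, and 0 rose and 5 fell in MHH-CALL4. That is 66.7% called in MUTZ-5 and 55.6% in MHH-CALL4, where 22.0% and 28.5% of all genes were. CD79B was called only in MUTZ-5 and EBF1 only in MHH-CALL4, both lower, and PAX5 and DNTT in neither line. CD79A, VPREB1, CD22 and CD24 fell in both lines, and VPREB1, a chain of the surrogate light chain, fell by 1.09 in MUTZ-5 and by 1.03 in MHH-CALL4. Markers of T and NK, myeloid, erythroid and stromal cells lay mostly under that median. NKG7 differed by -0.64 in MUTZ-5 and -0.96 in MHH-CALL4, PDGFRB by -0.66 and -0.85, and MPO by -0.48 and -2.47, all called; LYZ was called lower in MHH-CALL4, at -0.83. The part of these marker changes in the results was not tested. The list mean of the 8 T and NK markers ranged over arrays from 6.53 to 6.55 under JQ1 against 6.43 to 6.78 under DMSO in MUTZ-5, and from 6.39 to 6.78 against 6.65 to 6.73 in MHH-CALL4. That of the 5 myeloid markers ranged from 7.36 to 7.46 under JQ1 against 7.33 to 7.53 under DMSO in MUTZ-5, and from 7.45 to 7.62 against 8.09 to 8.19 in MHH-CALL4. Both samples are cultures of leukemia lines, and bulk RNA does not tell whether a marker changed in all cells of a line or in some.

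The enzyme genes stood high on these arrays: 46 of 57 had a mean over the 12 arrays at or above the median gene level, and 3 (PRMT8, KMT5A and SIRT4) lay under the lower quartile of 6.99. Some arrays stood apart for them. MUTZ-5 DMSO replicate 3 was the highest of its group for 48 of the 57 members, while it was so for 52.2% of all genes. MUTZ-5 DMSO replicate 2 was the lowest for 43 of the 57, and for 48.6% of all genes.

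In MUTZ-5, 20 members passed the test, 10 higher and 10 lower under JQ1, while 22.0% of all genes were called (9.06% higher and 13.0% lower). In MHH-CALL4, 21 members passed, 7 higher and 14 lower, where 28.5% of all genes were called (11.0% higher and 17.5% lower). The share of members called was 35.1% in MUTZ-5 and 36.8% in MHH-CALL4. By family the calls ran from 1 of 6 (SETD) to 6 of 11 (HDAC) genes in MUTZ-5 and from 2 of 8 (KMT) to 4 of 7 (KAT) genes in MHH-CALL4. JQ1 and DMSO arrays did not overlap for 31 of 57 members in MUTZ-5, against 32.6% of all genes, and for 32 of 57 in MHH-CALL4, against 43.7%. Fitted among the 7116 genes whose level reached the median, 23 of 46 members were called in MUTZ-5, where 42.8% of such genes were, and 24 of 46 in MHH-CALL4, where 47.2% were. Changes were small: the median absolute change of the members was 0.20 in each line, against 0.12 over all genes in MUTZ-5 and 0.16 in MHH-CALL4, and PRMT3 was the only member past 2-fold in either line. The median signed change of the members was -0.01 in MUTZ-5 and -0.02 in MHH-CALL4, beside 0.01 over all genes in each.

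Counts of rising members moved with single arrays and with the scaling. In MUTZ-5 there were 13 higher and 9 lower without DMSO replicate 3, and 16 and 9 when JQ1 replicate 3 of MHH-CALL4 was left out along with it. In MHH-CALL4 the 7 higher and 14 lower became 4 and 11 without DMSO replicate 2, 12 and 13 after median centring, 15 and 13 after cyclic loess, and 11 and 13 without that same pair of arrays, 1 from each line. Counts over all genes moved too. In MUTZ-5, 1673 genes were higher and 1502 lower without DMSO replicate 3, and 1886 and 1712 without the pair, where the full set gave 1290 and 1848. In MHH-CALL4, 1007 were higher and 1940 lower without DMSO replicate 2, 2162 and 2293 after median centring, 1972 and 2512 after cyclic loess, and 1674 and 2665 without the pair, where the full set gave 1563 and 2494.

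**Figure D1:**
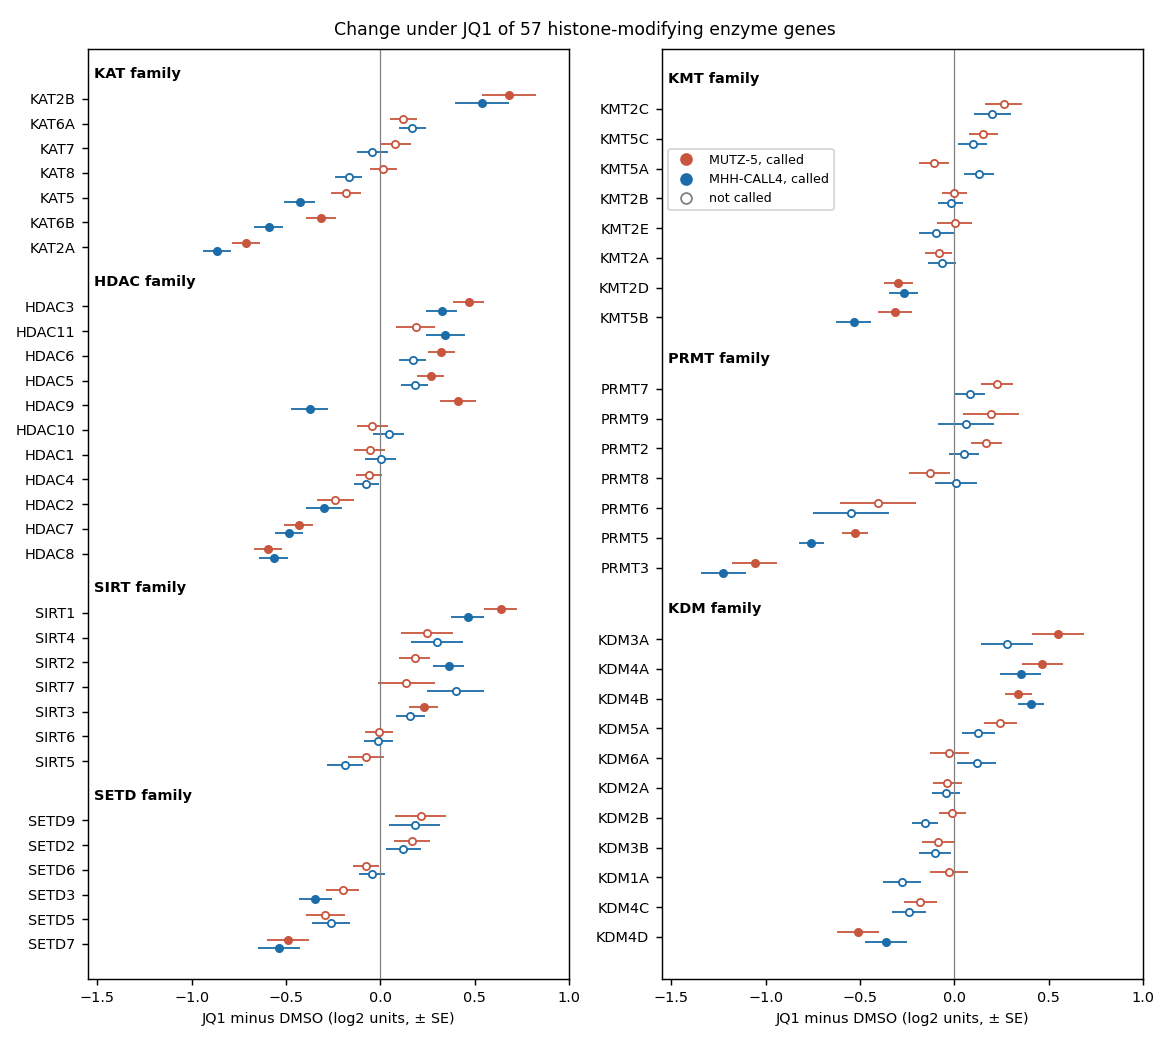
Change under JQ1 of all 57 members by family, as JQ1 minus DMSO in log2 units with standard errors from the fit. Red points (upper of each pair) are MUTZ-5, blue points (lower) MHH-CALL4, and filled points passed the test. PRMT3 lies at -1.06 and -1.23, KAT2B at 0.68 and 0.54, and HDAC9 on opposite sides of 0.

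Of the members called, 15 passed in both lines in 1 direction, which is 26.3% of the members, where 16.3% of all genes were called in both lines in 1 direction. These are 75.0% of the members called in MUTZ-5 and 71.4% of those called in MHH-CALL4, where the shares among calls over all genes were 74.1% and 57.3%. HDAC3, KAT2B, KDM4A, KDM4B and SIRT1 were higher in both. HDAC7, HDAC8, KAT2A, KAT6B, KDM4D, KMT2D, KMT5B, PRMT3, PRMT5 and SETD7 were lower in both. For 10 of these 15 both calls held under all alternatives that tested them: HDAC3, KDM4B and SIRT1, and HDAC7, HDAC8, KAT2A, KAT6B, PRMT3, PRMT5 and SETD7. The change had the same sign in both lines for 47 of the 57 members (82.5%), against 74.5% of all genes. Across the 57 members the changes in the lines correlated with Pearson's r of 0.90 and Spearman's rho of 0.86, beside 0.77 and 0.69 across all genes. This correlation is across genes, which are not independent replicates. Of the 57 members 46 stood at or above the median gene level. Neither the shared calls nor the correlation was compared with genes of like level.

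**Figure D2:**
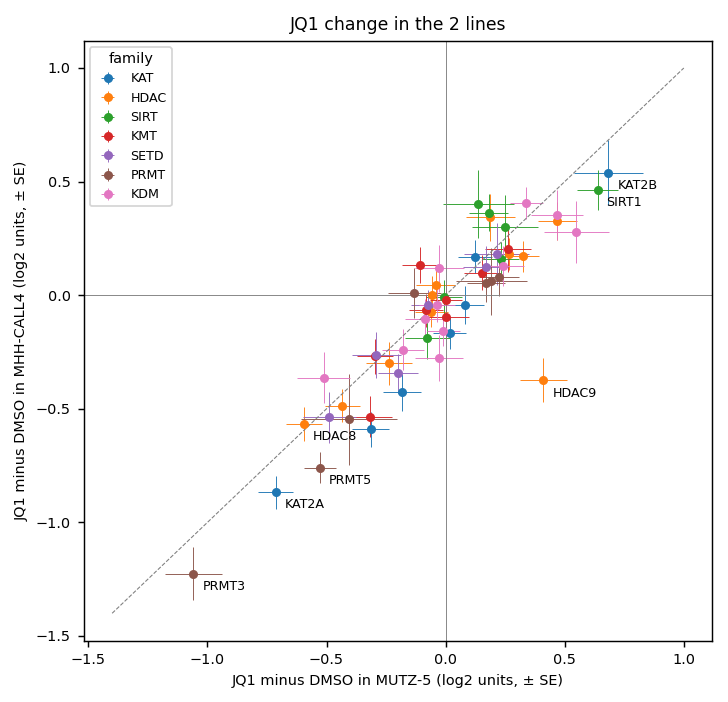
JQ1 minus DMSO of each member in MUTZ-5 (x axis) against the same in MHH-CALL4 (y axis), in log2 units with standard errors, coloured by family; the dashed line marks equal change. Of the 57 points 47 (82.5%) have the same sign in both lines, against 74.5% of all genes, and HDAC9 lies at 0.41 and -0.38.

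Among the acetyltransferases, the paralogs KAT2A and KAT2B changed in opposite directions in both lines. KAT2A (GCN5) is the catalytic acetyltransferase of the SAGA and ATAC coactivator complexes, and KAT2B (PCAF) can take its place there. KAT2A read 9.87, 9.78 and 9.93 in the 3 MUTZ-5 JQ1 arrays, against 10.59, 10.46 and 10.67 under DMSO. In MHH-CALL4 it read 9.75, 9.73 and 9.79 under JQ1, against 10.59, 10.66 and 10.62 under DMSO. All JQ1 arrays thus lay under all DMSO arrays of their line, and KAT2A fell by 0.71 ± 0.07 (SE) in MUTZ-5 (limma, adjusted p = 1.34e-05) and by 0.87 ± 0.07 in MHH-CALL4 (limma, adjusted p = 1.68e-06).

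KAT2B went the other way. Its values were 9.998, 9.98 and 9.52 in MUTZ-5 under JQ1, against 9.10, 8.96 and 9.38 under DMSO. In MHH-CALL4 they were 10.40, 10.33 and 9.99 under JQ1, against 9.75, 9.65 and 9.69 under DMSO. JQ1 replicate 3 was the lowest JQ1 array in each line but still lay above every DMSO array of its line. KAT2B rose by 0.68 ± 0.14 in MUTZ-5 (limma, adjusted p = 0.00354) and by 0.54 ± 0.14 in MHH-CALL4 (limma, adjusted p = 0.0130). The MHH-CALL4 call did not hold without DMSO replicate 2 (adjusted p = 0.0506) or without JQ1 replicate 1 (adjusted p = 0.0512).

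Of the 5 MYST acetyltransferases, KAT6B fell in both lines. KAT6B (MORF) acetylates histone H3 within a complex with BRPF proteins. It read 10.69, 10.66 and 10.61 in MUTZ-5 under JQ1, against 10.92, 10.90 and 11.09 under DMSO, a fall of 0.31 ± 0.08 (limma, adjusted p = 0.00928). Its MHH-CALL4 values were 10.62, 10.62 and 10.50, against 11.09, 11.26 and 11.16, a fall of 0.59 ± 0.08 (limma, adjusted p = 7.2e-05). KAT5 (Tip60), which acetylates histones H4 and H2A and acts in DNA repair, differed by -0.18 in MUTZ-5 (limma, adjusted p = 0.140) and fell by 0.43 in MHH-CALL4 (limma, adjusted p = 0.00134). KAT6A, KAT7 and KAT8 passed in neither line, with changes from -0.17 to 0.17. The JQ1 and DMSO arrays did not overlap for KAT6A in either line, nor for KAT8 in MHH-CALL4. KAT6A was called higher in MHH-CALL4 after median centring, after cyclic loess, under a trended robust prior and among genes whose level reached the median. Over the 7 KAT genes, 1 rose and 2 fell in MUTZ-5, and 1 rose and 3 fell in MHH-CALL4, with medians of 0.02 and -0.17. These are 42.9% called in MUTZ-5 and 57.1% in MHH-CALL4, against 22.0% and 28.5% of all genes.

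Deacetylases moved in both directions, and class I was split. HDAC3, the catalytic subunit of the NCoR and SMRT corepressor complexes, read 11.65, 11.63 and 11.63 in MUTZ-5 under JQ1, against 11.13, 11.05 and 11.32 under DMSO. The MHH-CALL4 arrays read 11.48, 11.41 and 11.30 under JQ1, against 11.15, 11.03 and 11.03 under DMSO. No JQ1 array overlapped a DMSO array of its line, and HDAC3 rose by 0.47 ± 0.08 in MUTZ-5 (limma, adjusted p = 9.54e-04) and by 0.33 ± 0.08 in MHH-CALL4 (limma, adjusted p = 0.00912).

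HDAC8, a class I deacetylase that acts on the cohesin subunit SMC3, fell in both lines. In MUTZ-5 it read 9.95, 9.90 and 9.83 under JQ1, against 10.48, 10.39 and 10.60 under DMSO. MHH-CALL4 gave 10.40, 10.42 and 10.30 under JQ1, against 10.89, 11.00 and 10.93 under DMSO. The falls were of 0.60 ± 0.08 in MUTZ-5 (limma, adjusted p = 7.44e-05) and 0.57 ± 0.08 in MHH-CALL4 (limma, adjusted p = 8.41e-05), with no overlap in either line. HDAC1 and HDAC2 are the catalytic subunits of the Sin3, NuRD and CoREST complexes. HDAC1 differed by -0.06 in MUTZ-5 and 0.00 in MHH-CALL4 and passed in neither. HDAC2 differed by -0.24 in MUTZ-5 (limma, adjusted p = 0.102) and was called lower in MHH-CALL4 at -0.30, a call that 9 alternatives ended.

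Class IIa deacetylases shuttle between nucleus and cytoplasm and repress MEF2 targets. HDAC7, which is known for its role in B cell identity, read 10.04, 9.97 and 10.15 in MUTZ-5 under JQ1, against 10.49, 10.40 and 10.57 under DMSO. MHH-CALL4 arrays gave 9.99, 10.01 and 10.10 under JQ1, against 10.48, 10.55 and 10.54 under DMSO. It fell by 0.43 ± 0.07 in MUTZ-5 (limma, adjusted p = 8.1e-04) and by 0.49 ± 0.07 in MHH-CALL4 (limma, adjusted p = 2.61e-04), without overlap. HDAC5 was called higher in MUTZ-5 at 0.27 and differed by 0.18 in MHH-CALL4, and HDAC4 differed by -0.06 and -0.07 and passed in neither line. The HDAC5 call in MUTZ-5 did not hold without DMSO replicate 2 or without JQ1 replicate 3 of that line, or when MUTZ-5 arrays alone were fitted.

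HDAC6, the cytoplasmic tubulin deacetylase of class IIb, read 9.90, 9.82 and 9.89 in MUTZ-5 under JQ1, against 9.56, 9.43 and 9.65 under DMSO, a rise of 0.32 ± 0.07 (limma, adjusted p = 0.00414). Values in MHH-CALL4 were 9.90, 9.88 and 9.89, against 9.70, 9.75 and 9.71, a difference of 0.17 (limma, adjusted p = 0.0875). The MHH-CALL4 arrays did not overlap either, although the test was not passed. HDAC10, the polyamine deacetylase, passed in neither line. HDAC11, the lone class IV member, stood at a low level and differed by 0.19 in MUTZ-5 (limma, adjusted p = 0.255). In MHH-CALL4 it read 7.22, 7.36 and 7.32 under JQ1, against 6.90, 6.81 and 7.16 under DMSO, a rise of 0.34 ± 0.10 (limma, adjusted p = 0.0241) that did not hold without DMSO replicate 1 or 2, or without JQ1 replicate 2 or 3. That call was also lost when the replicate number entered the fit as a block. Over the 11 HDAC genes, 4 rose and 2 fell in MUTZ-5, and 2 rose and 4 fell in MHH-CALL4, with medians of -0.04 and 0.00. The share called was 54.5% in each line, against 22.0% of all genes in MUTZ-5 and 28.5% in MHH-CALL4.

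HDAC9 was the single member whose response differed between the lines, where 1.53% of all genes were called for that difference. HDAC9 is a class IIa deacetylase expressed in the B cell lineage. Under JQ1 it read 8.36, 8.29 and 8.22 in MUTZ-5, against 7.79, 7.79 and 8.06 under DMSO. Its MHH-CALL4 values were 7.99, 7.87 and 7.80 under JQ1, against 8.41, 8.18 and 8.18 under DMSO. Every JQ1 array was above every DMSO array in MUTZ-5 and under every DMSO array in MHH-CALL4. HDAC9 rose by 0.41 ± 0.10 in MUTZ-5 (limma, adjusted p = 0.00728) and fell by 0.38 ± 0.10 in MHH-CALL4 (limma, adjusted p = 0.0108). The difference of the effects was 0.79 ± 0.14 (limma, adjusted p = 0.00854). Of all genes, 0.148% were called in opposite directions in the lines.

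The opposite changes of HDAC9 depended in part on which probes were summarised. Under the extended probe set, which adds probes of weaker annotation, HDAC9 read 7.43, 7.40 and 7.36 in MUTZ-5 under JQ1, against 7.04, 6.98 and 7.24 under DMSO. The MHH-CALL4 arrays read 7.25, 7.12 and 7.08, against 7.53, 7.25 and 7.30. The difference of effects was then 0.52 (limma, adjusted p = 0.0674), and HDAC9 was not called in MHH-CALL4. That MHH-CALL4 call was also lost without DMSO replicate 1, the highest of its group.

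**Figure D3:**
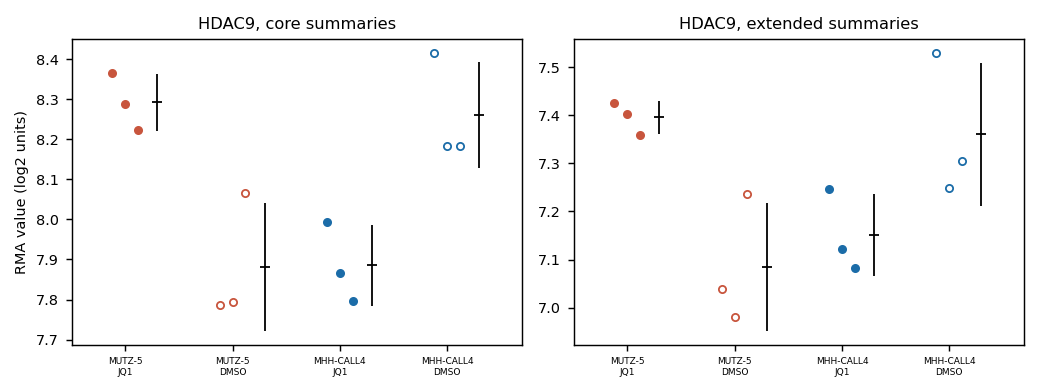
HDAC9 values in each array (points, log2 units) with the mean and SD of 3 arrays (black), from the core summaries on the left and the extended summaries on the right. Filled points are JQ1 and open points DMSO. With core summaries the JQ1 arrays lie above DMSO in MUTZ-5 and under DMSO in MHH-CALL4; with extended summaries the direction is the same and the gap smaller.

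For the other 56 members, the difference of effects between MUTZ-5 and MHH-CALL4 ran from -0.26 to 0.28 and the lowest adjusted p was 0.365 (limma). Without adjustment 3 members had p under 0.05, which were HDAC9, KAT6B at 0.28 and PRMT5 at 0.23. Of all 57, 40 had a positive difference and 17 a negative one. The median difference was 0.06 over the members and 0.02 over all genes. For neither count was the share over all genes taken, so neither is read as a trait of the members. A p that misses the threshold does not show that the lines responded alike.

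The sirtuins are NAD-dependent deacylases, some nuclear and some mitochondrial. SIRT1, a nuclear deacetylase of histones and of p53, rose in both lines. It read 10.25, 10.22 and 10.15 in MUTZ-5 under JQ1, against 9.52, 9.44 and 9.75 under DMSO. MHH-CALL4 arrays gave 10.26, 10.22 and 10.22, against 9.69, 9.90 and 9.72. No arrays overlapped, and the rises were 0.64 ± 0.09 in MUTZ-5 (limma, adjusted p = 1.49e-04) and 0.46 ± 0.09 in MHH-CALL4 (limma, adjusted p = 0.00141).

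SIRT2, a mostly cytoplasmic deacetylase of tubulin and histone H4, read 8.44, 8.39 and 8.26 in MUTZ-5 under JQ1, against 8.21, 8.20 and 8.14 under DMSO, a difference of 0.18 (limma, adjusted p = 0.152). Values in MHH-CALL4 were 8.53, 8.70 and 8.59, against 8.28, 8.35 and 8.11, a rise of 0.36 ± 0.08 (limma, adjusted p = 0.00476). SIRT3, the main mitochondrial deacetylase, was called in MUTZ-5 at 0.23 (limma, adjusted p = 0.0443), a call that 14 alternatives ended, leaving out each MUTZ-5 array in turn among them, and differed by 0.16 in MHH-CALL4. SIRT4, SIRT5, SIRT6 and SIRT7 passed in neither line. SIRT7 differed by 0.14 in MUTZ-5 (limma, adjusted p = 0.637) and by 0.4 in MHH-CALL4 (limma, adjusted p = 0.0626). Its MHH-CALL4 arrays did not overlap. SIRT7 was called higher there with extended summaries, after median centring and after cyclic loess, among other alternatives. Over the 7 sirtuins 2 rose and 0 fell in each line, with medians of 0.18 in MUTZ-5 and 0.30 in MHH-CALL4. The share called, 28.6% in each, lay near the 22.0% and 28.5% of all genes. SIRT5 and SIRT6 had differences under 0 in both lines, from -0.19 to -0.01.

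**Figure D4:**
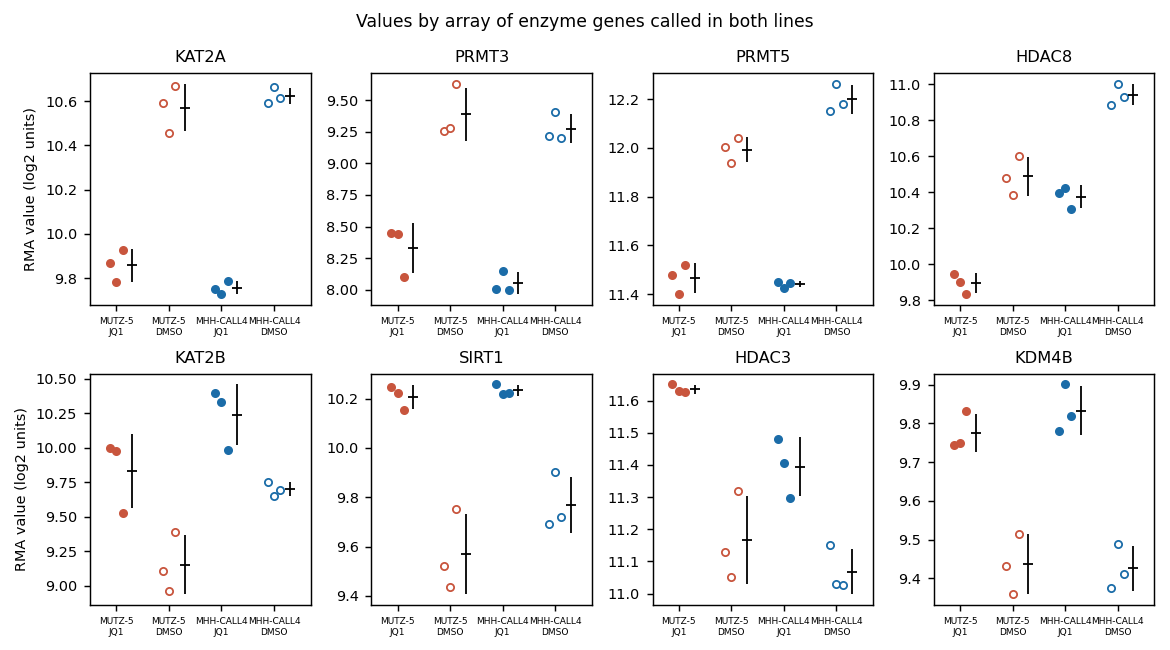
Values in each array (points, log2 units) of 8 members called in both lines, with the mean and SD of 3 arrays (black). Filled points are JQ1 and open points DMSO, red is MUTZ-5 and blue MHH-CALL4, and each panel has its own axis. KAT2A, PRMT3, PRMT5 and HDAC8 lie lower under JQ1 in both lines, and KAT2B, SIRT1, HDAC3 and KDM4B higher, with no overlap between JQ1 and DMSO arrays of a line.

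Methyltransferases that passed the test all fell. Of the 21 KMT, SETD and PRMT genes, 0 rose and 5 fell in MUTZ-5, and 0 rose and 6 fell in MHH-CALL4, with medians of -0.08 and -0.04. The shares called, 23.8% in MUTZ-5 and 28.6% in MHH-CALL4, lay near those of all genes (22.0% and 28.5%), of whose calls 58.9% and 61.5% were lower. This one-sidedness did not hold under every alternative. KMT2C, PRMT2 and PRMT7 were called higher in MUTZ-5 after median centring, after cyclic loess and without DMSO replicate 3. KMT2C was also called higher there under a trended robust prior, without JQ1 replicate 3 and, with PRMT7, among genes whose level reached the median. In MHH-CALL4, KMT2C and SETD2 were called higher after cyclic loess. Without JQ1 replicate 3 of MHH-CALL4, KMT2C was called higher in both lines.

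Among the arginine methyltransferases, PRMT3 had the largest change of any member in each line. PRMT3 methylates the small ribosomal subunit protein uS5 and is a mainly cytoplasmic enzyme. It read 8.45, 8.44 and 8.10 in MUTZ-5 under JQ1, against 9.26, 9.28 and 9.63 under DMSO. In MHH-CALL4 it read 8.00, 8.15 and 8.00 under JQ1, against 9.21, 9.41 and 9.20 under DMSO. The groups were far apart in both lines, and PRMT3 fell by 1.06 ± 0.12 in MUTZ-5, or 2.08-fold (limma, adjusted p = 2.66e-05), and by 1.23 ± 0.12 in MHH-CALL4, or 2.34-fold (limma, adjusted p = 5.18e-06).

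PRMT5 makes symmetric dimethylarginine on histones and on splicing proteins, in a complex with WDR77. It read 11.48, 11.40 and 11.52 in MUTZ-5 under JQ1, against 12.004, 11.94 and 12.04 under DMSO. Its MHH-CALL4 values were 11.45, 11.43 and 11.45 under JQ1, against 12.15, 12.26 and 12.18 under DMSO. PRMT5 fell by 0.53 ± 0.07 in MUTZ-5 (limma, adjusted p = 7.37e-05) and by 0.76 ± 0.07 in MHH-CALL4 (limma, adjusted p = 2.34e-06), with no overlap. Its partner WDR77 read 9.78, 9.65 and 9.73 in MUTZ-5 under JQ1, against 10.25, 10.11 and 10.44 under DMSO, and 9.56, 9.47 and 9.43 in MHH-CALL4 under JQ1, against 10.01, 9.98 and 9.99 under DMSO. WDR77 thus also lay lower in every JQ1 array, by 0.55 in MUTZ-5 (limma, adjusted p = 3.44e-04) and 0.51 in MHH-CALL4 (limma, adjusted p = 4.93e-04). CLNS1A, the other PRMT5 cofactor on the list of partners, did not pass: it differed by 0.20 in MUTZ-5, where the arrays did not overlap (limma, adjusted p = 0.0918), and by -0.05 in MHH-CALL4.

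PRMT6, which makes asymmetric dimethylarginine on histone H3, had large but scattered differences. It read 8.13, 7.98 and 8.12 in MUTZ-5 under JQ1, against 8.25, 8.42 and 8.78 under DMSO. The MHH-CALL4 arrays read 8.19, 8.12 and 7.27, against 8.54, 8.43 and 8.25. Groups did not overlap in either line, JQ1 replicate 3 was far under the others in MHH-CALL4, and neither the difference of -0.40 in MUTZ-5 (limma, adjusted p = 0.196) nor that of -0.55 in MHH-CALL4 (limma, adjusted p = 0.0578) passed. PRMT2, PRMT7, PRMT8 and PRMT9 passed in neither line, with differences from -0.13 to 0.23. Over the 7 PRMT genes 0 rose and 2 fell in each line, with medians of -0.13 in MUTZ-5 and 0.01 in MHH-CALL4. The share called, 28.6% in each line, lay near the 22.0% and 28.5% of all genes.

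Among the lysine methyltransferases, KMT5B, which writes higher methylation of histone H4, read 10.17, 10.17 and 10.09 in MUTZ-5 under JQ1, against 10.41, 10.31 and 10.66 under DMSO. MHH-CALL4 arrays gave 10.02, 9.99 and 9.96, against 10.50, 10.64 and 10.43. It fell by 0.32 ± 0.09 in MUTZ-5 (limma, adjusted p = 0.0226) and by 0.53 ± 0.09 in MHH-CALL4 (limma, adjusted p = 6.12e-04). In MUTZ-5 the call did not hold without DMSO replicate 3 (adjusted p = 0.0703), without any 1 of the 3 JQ1 arrays, with extended summaries (adjusted p = 0.0511), or when MUTZ-5 arrays alone were fitted. Entering the replicate number as a block also ended that call.

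KMT2D (MLL4), an enhancer methyltransferase that is often mutated in B cell lymphoma, fell by 0.30 in MUTZ-5 (limma, adjusted p = 0.0122) and by 0.27 in MHH-CALL4 (limma, adjusted p = 0.0180). Those calls were lost without MUTZ-5 JQ1 replicate 1, and in MHH-CALL4 without DMSO replicate 2, without JQ1 replicate 1 or after cyclic loess. KMT2A (MLL), the gene rearranged in many infant leukemias, differed by -0.08 and -0.07, and KMT2B, KMT2C and KMT2E did not pass either. Over the 8 KMT genes 0 rose and 2 fell in each line, with a median of -0.04 in each.

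SETD7, a lysine methyltransferase of histone H3 and of many other proteins, read 9.74, 9.71 and 9.40 in MUTZ-5 under JQ1, against 10.05, 9.95 and 10.31 under DMSO. Values in MHH-CALL4 were 9.94, 9.83 and 9.69, against 10.42, 10.33 and 10.32. No arrays overlapped, and the falls were 0.49 ± 0.11 in MUTZ-5 (limma, adjusted p = 0.00607) and 0.54 ± 0.11 in MHH-CALL4 (limma, adjusted p = 0.00266). SETD3, whose known substrate is actin, differed by -0.20 in MUTZ-5 (limma, adjusted p = 0.125) and fell by 0.34 in MHH-CALL4 (limma, adjusted p = 0.00854). SETD2, the transcription-coupled methyltransferase that is mutated in some leukemias, differed by 0.17 and 0.12 and did not pass. SETD5 differed by -0.29 in MUTZ-5 (limma, adjusted p = 0.059) and by -0.26 in MHH-CALL4 (limma, adjusted p = 0.0731), without overlap in either line. It was called lower in both lines under a trended robust prior. Of the 6 SETD genes 0 rose in either line, 1 fell in MUTZ-5 and 2 fell in MHH-CALL4, with medians of -0.14 and -0.15. These are 16.7% called in MUTZ-5 and 33.3% in MHH-CALL4, against 22.0% and 28.5% of all genes.

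The lysine demethylases changed in both directions, and the KDM4 subfamily was divided. KDM4A and KDM4B remove methyl groups that mark silent chromatin and transcribed gene bodies. KDM4B read 9.74, 9.75 and 9.83 in MUTZ-5 under JQ1, against 9.43, 9.36 and 9.52 under DMSO. In MHH-CALL4 it read 9.78, 9.90 and 9.82, against 9.38, 9.49 and 9.41. It rose by 0.34 ± 0.07 in MUTZ-5 (limma, adjusted p = 0.00332) and by 0.41 ± 0.07 in MHH-CALL4 (limma, adjusted p = 7.36e-04), without overlap.

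KDM4A read 10.37, 10.33 and 10.22 in MUTZ-5 under JQ1, against 9.85, 9.61 and 10.06 under DMSO, a rise of 0.47 ± 0.11 (limma, adjusted p = 0.00658). Its MHH-CALL4 values were 10.45, 10.38 and 10.21, against 10.11, 9.92 and 9.94, a rise of 0.35 ± 0.11 (limma, adjusted p = 0.0265) that did not hold without DMSO replicate 2 or 3, or without JQ1 replicate 1 or 2 (adjusted p from 0.0770 to 0.0981).

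KDM4D, a member that lacks the reader domains of KDM4A to KDM4C, fell in both lines at a low level. It read 7.39, 7.37 and 7.39 in MUTZ-5 under JQ1, against 8.01, 7.56 and 8.11 under DMSO. The MHH-CALL4 arrays read 7.25, 7.31 and 7.35, against 7.67, 7.65 and 7.68. The falls were 0.51 ± 0.11 in MUTZ-5 (limma, adjusted p = 0.00424) and 0.36 ± 0.11 in MHH-CALL4 (limma, adjusted p = 0.0260), and the MHH-CALL4 call was lost without any 1 of the 3 DMSO arrays, or without JQ1 replicate 1 or 2. KDM4C differed by -0.18 and -0.24 and did not pass in either line, although its arrays did not overlap in either. It was called lower in MHH-CALL4 under a trended robust prior, among genes whose level reached the median and without MUTZ-5 DMSO replicate 3.

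KDM3A, a demethylase induced by hypoxia, rose in MUTZ-5. It read 10.17, 10.07 and 9.79 there under JQ1, against 9.38, 9.30 and 9.71 under DMSO, and the rise was 0.55 ± 0.14 (limma, adjusted p = 0.0102; 0.0508 without DMSO replicate 2). MHH-CALL4 arrays gave 10.34, 10.23 and 9.86, against 9.90, 9.85 and 9.84, a difference of 0.28 (limma, adjusted p = 0.150), with JQ1 replicate 3 among the DMSO values. KDM1A (LSD1), the demethylase of the CoREST complex, differed by -0.03 in MUTZ-5 and -0.28 in MHH-CALL4 (limma, adjusted p = 0.920 and 0.0565). Over the 11 KDM genes, 3 rose and 1 fell in MUTZ-5, and 2 rose and 1 fell in MHH-CALL4, with medians of -0.03 and -0.04. These are 36.4% called in MUTZ-5 and 27.3% in MHH-CALL4, against 22.0% and 28.5% of all genes.

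Other enzymes of histone modification stand outside these naming patterns. Of 33 listed, 26 were measured; 2 rose and 8 fell in MUTZ-5, and 2 rose and 11 fell in MHH-CALL4, with medians of -0.10 and -0.18. That is 10 of 26 called in MUTZ-5 and 13 of 26 in MHH-CALL4, where 22.0% and 28.5% of all genes were called, most of them lower too (58.9% and 61.5% of calls). The heterochromatin methyltransferase SUV39H1 fell by 0.65 in MUTZ-5 and by 0.74 in MHH-CALL4, and the ribosomal oxygenase RIOX2 by 0.60 and by 1.12. CARM1, the coactivator arginine methyltransferase also known as PRMT4, fell by 0.57 in MUTZ-5 and by 0.61 in MHH-CALL4. The coactivator NCOA1 rose in both lines, by 0.78 in MUTZ-5 and 0.52 in MHH-CALL4. EZH2, the polycomb methyltransferase, differed by 0.04 and 0.01 and did not pass.

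Of 45 listed noncatalytic partners of these enzymes 34 were measured; 4 rose and 6 fell in MUTZ-5, and 2 rose and 9 fell in MHH-CALL4, with medians of -0.03 and -0.08. The shares called were 29.4% in MUTZ-5 and 32.4% in MHH-CALL4, against 22.0% and 28.5% of all genes. Besides WDR77, the KMT2 partner HCFC1 fell by 0.48 in MUTZ-5 and by 0.51 in MHH-CALL4, and the NuRD subunit MTA3 by 0.40 and by 0.54. TBL1XR1, a subunit of the HDAC3 corepressor complexes, fell by 0.35 in MUTZ-5 and by 0.49 in MHH-CALL4, in the lines in which HDAC3 itself rose. SAP30, a subunit of the Sin3 deacetylase complex, rose by 0.47 in MUTZ-5 and by 0.31 in MHH-CALL4.

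Under DMSO alone, 12 members differed between MUTZ-5 and MHH-CALL4, 2 higher and 10 lower in MUTZ-5, where 23.4% of all genes were called (11.9% higher and 11.5% lower). The lines did not overlap under DMSO for 19 members, as for 36.2% of all genes. KDM6A (UTX) removes the repressive methyl mark that polycomb lays down and works in the same complex as KMT2D; its gene lies on the X chromosome. KDM6A read 5.10, 5.13 and 4.80 in MUTZ-5 under DMSO, against 9.51, 9.70 and 9.50 in MHH-CALL4 under DMSO. Under JQ1 it read 5.04, 4.91 and 5.01 in MUTZ-5, against 9.80, 9.73 and 9.54 in MHH-CALL4. The lines were thus far apart under either treatment. KDM6A averaged 5.01 ± 0.18 in MUTZ-5 and 9.57 ± 0.11 in MHH-CALL4 (SD, n = 3 each), a difference of -4.56 ± 0.10 (limma, adjusted p = 1.67e-12). Its MUTZ-5 mean lay under 5.72, the lowest decile of gene levels, where signal over background is unknown, so no fold is given. Of all genes, 4.71% had a lower mean than KDM6A in MUTZ-5 under DMSO, and 11 genes, KDM6A included, were lower in MUTZ-5 by at least as much. The JQ1 change of KDM6A was -0.03 in MUTZ-5 and 0.12 in MHH-CALL4 and passed in neither.

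The other differences between lines were below 2-fold. KDM5A, a demethylase of active promoters, read 10.35, 10.29 and 10.57 in MUTZ-5 under DMSO, against 9.74, 9.90 and 9.77 in MHH-CALL4, and was higher by 0.61 ± 0.09 (limma, adjusted p = 1.47e-04). KDM4C read 10.52, 10.52 and 10.80 in MUTZ-5, against 10.01, 10.15 and 10.05 in MHH-CALL4, and was higher by 0.55 ± 0.09 (limma, adjusted p = 4.44e-04). SETD9 read 6.58, 6.42 and 6.94 in MUTZ-5, against 7.50, 7.26 and 7.35 in MHH-CALL4, and was lower at -0.72 ± 0.14 (limma, adjusted p = 0.00127). None of these 3 overlapped between lines.

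HDAC8 was lower in MUTZ-5 under DMSO, with a difference of -0.45 (limma, adjusted p = 4.85e-04), and so was KAT2B, at -0.55 (limma, adjusted p = 0.0130; 0.0670 without MUTZ-5 DMSO replicate 2). HDAC9, KDM3A, KAT8, KDM2B, KMT2D and PRMT5 were also called lower, with differences from -0.40 to -0.21. The count of 12 was 7 without MHH-CALL4 DMSO replicate 2, 6 without MUTZ-5 DMSO replicate 1, 7 without MUTZ-5 DMSO replicate 2 and 17 without MUTZ-5 DMSO replicate 3. KDM6A, SETD9, KDM5A, KDM4C and HDAC8 kept their calls under all alternatives that tested them.

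**Figure D5:**
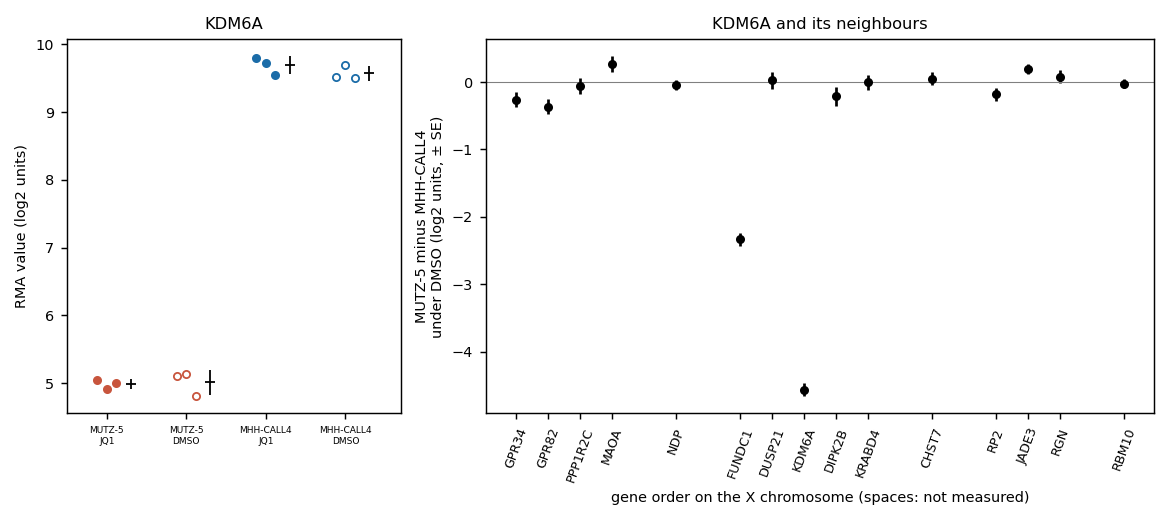
Left, KDM6A in each array (points, log2 units) with mean and SD of 3 arrays; filled points are JQ1 and open points DMSO. Right, MUTZ-5 minus MHH-CALL4 under DMSO (log2 units, ± SE) of KDM6A and the measured protein-coding genes nearest to it, in the order they have on the X chromosome. KDM6A lies at -4.56 and FUNDC1 at -2.33, and the other neighbours between -0.37 and 0.26. DUSP21 and DIPK2B, on either side of KDM6A, stood near the lowest decile of gene levels in both lines.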

How the data were processed

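RNA was measured on 12 Affymetrix exon arrays. The deposited values are log2 values that the authors made with RMA in Affymetrix Expression Console, per the labels and the submitters' processing notes; the program's version, the build and which arrays were normalized together are not given in the sources used here. Each array was deposited as core (22011 transcript clusters) and extended (133672) summaries of 1 scan, which count as 1 replicate. Of the core clusters 14432 carry 1 symbol, and for each gene the one with the highest mean was used, leaving 14232 genes; KMT2A is the only member with more than 1. No low values were removed.

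The 12 arrays entered a single limma 3.58.1 fit (R 4.3.3, lmFit and eBayes at their defaults) that gave each group a mean, with Benjamini-Hochberg adjustment over all genes, two-sided, at 0.05; the procedure was tested on simulated data. Alternatives were extended summaries, median centring, cyclic loess, a trended robust prior, only the arrays compared, only genes whose level reached the median, the mean of all clusters of a gene, a replicate block and each array left out. Leaving out 2 arrays together was chosen after seeing the data. Array values are given for called members without overlap (the 8 largest rises and falls per line), the 6 largest differences between lines in effect and under DMSO, and for HDAC9 in extended summaries, PRMT6 and WDR77, which, like the markers named and CLNS1A, were chosen after their values were seen; up to 4 rises and falls per line and companion list could be named, and EZH2 was added. Members and lists were chosen with earlier results of these data known. The files used give no detection calls, so signal over background is unknown. Promoters are RefSeq entries (GRCh38.p14).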

Additional observations from a re-analysis of the deposited data

Results flagged for a closer look

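HDAC9 is listed because its JQ1 effect differed between the lines: the effect in MUTZ-5 minus that in MHH-CALL4 was 0.786 on the log2 scale (limma, adjusted p = 0.00854), with all 3 JQ1 arrays above all DMSO arrays in MUTZ-5 and all 3 under them in MHH-CALL4.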

How the results depend on the processing

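Of 38 gene results chosen as the largest calls, 31 kept their call under every alternative that tested them, 7 lost it under at least 1, and 0 changed sign. The cause was not tested. Not every alternative could move every result. Averaging all clusters of a gene changes the values of KMT2A alone among the members. KDM4D and SIRT2 have the same values in core and extended summaries. Leaving out an array of the other line keeps a JQ1 change as it was and alters only the shared estimate of the spread. Some smaller JQ1 calls outside these 38 were lost too. They were HDAC2, HDAC9, KDM4D and KMT2D in MHH-CALL4, and HDAC5, KMT2D and SIRT3 in MUTZ-5. Those of KAT5 and SETD3 in MHH-CALL4 and of KAT6B in MUTZ-5 held. Members higher under JQ1 numbered 7 to 13 over the fits without 1 array in MUTZ-5 (10 with all arrays) and 4 to 8 in MHH-CALL4 (7 with all); with the third DMSO array of MUTZ-5 and the third JQ1 array of MHH-CALL4 both left out they numbered 16 and 11, and in MHH-CALL4 12 after median centring and 15 after cyclic loess. For the difference of effects, 0 members were called with extended summaries and 0 when genes under the median level were left out, where HDAC9 was not tested. Members that differed between lines under DMSO numbered 6 to 17 over the fits without 1 array, and 18 without those 2 arrays. Whether the replicate numbers pair the samples is not in the labels. Same-numbered JQ1 and DMSO arrays correlated in their residuals between -0.436 and -0.174 in MUTZ-5 and between 0.070 and 0.299 in MHH-CALL4. Arrays of unlike number correlated between -0.318 and 0.39 in MUTZ-5 and between -0.304 and 0.1 in MHH-CALL4. Pairing thus did not show in MUTZ-5 and stayed unsettled in MHH-CALL4. With a replicate block, 9 members were higher and 9 lower in MUTZ-5, and 7 and 14 in MHH-CALL4; SIRT3 and KMT5B were then not called in MUTZ-5, nor HDAC11 and HDAC2 in MHH-CALL4, where SIRT7 and PRMT6 were. The block gives no value for the lines under DMSO, since it lies within lines. With 3 arrays a group and no background level, small changes of dim genes could not be resolved.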

Other observations

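Of the 20 protein-coding genes nearest to KDM6A on the X chromosome, 10 on each side in RefSeq order, 14 were measured. Of these 14, 2 differed between the lines under DMSO, where 23.4% of all genes were called. FUNDC1, a mitochondrial outer membrane receptor for mitophagy that lies 2 genes away, read 8.37, 8.51 and 8.16 in MUTZ-5, against 10.63, 10.71 and 10.72 in MHH-CALL4, a difference of -2.33 (limma, adjusted p = 2.98e-10). GPR82 differed by -0.37 at a low level, 3.77 in MUTZ-5 and 4.14 in MHH-CALL4 (limma, adjusted p = 0.0288). DUSP21, between FUNDC1 and KDM6A, averaged 5.86 in MUTZ-5 and 5.83 in MHH-CALL4. On the other side DIPK2B differed by -0.21 and KRABD4 by 0.00, and neither passed.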
